A study of Citrus sinensis with 10 samples.

Results

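Fruit of Hong Anliu, a red-fleshed bud mutant of sweet orange (Citrus sinensis), was compared with fruit of its wild type, Anliu, 190 days after flowering. The comparison rests on 2 of the 10 cDNA arrays of the study, which were chosen by their collection day alone and are labelled R4 for the mutant and CK4 for the wild type. On repeat 1 the mutant RNA was labelled with Cy5 and the wild-type RNA with Cy3, and on repeat 2 the dyes were exchanged. The other 8 arrays hold the same comparison at 120, 150, 170 and 220 days, as dye-swapped pairs. Genotype and day are what the labels tell apart, and no treatment is named. The mutant is 1 line, and the labels do not say how many trees or fruits entered an extract. Both arrays of 190 days hold the same pair of extracts and count as 1 replicate, so a clone's ratio at 190 days has a technical spread and no test.

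A bud mutant starts from a single altered shoot and is kept by grafting, so that it shares nearly all of its genome with the parent. The red of Hong Anliu flesh comes from lycopene, a carotenoid that is built from phytoene by desaturation and isomerisation and that lycopene cyclases turn into carotenes. Ripening orange fruit also loses organic acid, gains sugar and exchanges chlorophyll for carotenoids in its peel. The comparison asks how the transcripts of mutant and wild-type fruit differ during ripening. The arrays name their features as cDNA clones by plate, row and column. Of the 5856 clone names, 0 matched the RefSeq gene table of sweet orange, which lists 29331 genes. No gene, pathway or tissue marker could therefore be named, and the tissue label could not be checked against marker genes. The labels mention subtractive hybridization, a way to enrich transcripts that differ, beside the arrays, and do not say whether these clones came from it. Several clones can carry the same transcript, so counts of clones are not counts of genes.

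The arrays carried 19152 spots in 48 printing blocks, with 3 spots for each clone and 1584 control spots. The median intensity over clone spots at 190 days was 2912 and 2855 for the mutant on repeats 1 and 2, and 3593 and 3592 for the wild type. The HEX control, a dye read in the Cy3 channel, stood at the top of the Cy3 scale on both arrays and at 14 to 14.5 in Cy5. Controls Y5 and Y7 were brighter in the mutant on both arrays, and Y6 and Y8 were brighter in the wild type. Controls Y1 to Y4 lay slightly above the typical clone, at a mean log2 ratio of 0.20 ± 0.14 (SD over 4 controls). What these controls were made to show is not given in the sources used here.

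A ratio is given as the log2 of mutant over wild type after a loess fit within its array, which sets the typical clone to about 0. The dye-swapped arrays correlated across the kept clones at r = 0.93 (Spearman's rho 0.91), a description of technical agreement over clones that share both extracts. The SD of the ratio over clones was 0.71, against a hybridisation SD of 0.20, the SD of the difference between the arrays divided by the square root of 2. Within an array the median SD over the 3 spots of a clone was 0.065 on repeat 1 and 0.064 on repeat 2. The spread between clones was thus larger than the spread between arrays. The value between arrays pools all clones and the value between spots is a median over clones, so their sizes are not directly comparable.

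At 190 days 645 of the 5852 clones above background differed at least 2-fold, with both arrays in one direction, which is 11% of them. In the mutant 364 clones were higher (6.22%) and 281 were lower (4.8%). This balance depends on the centre: with controls Y1 to Y4 as the centre in place of the typical clone, 228 were higher and 545 lower. The higher clones had a median ratio of 1.56, with quartiles of 1.27 and 1.91, and the lower clones a median of -1.34, with quartiles of -1.43 and -1.22. The 2 sides differed in shape. At 3-fold on both arrays 159 clones were higher and 36 lower, whereas at 4-fold 16 were higher and 27 lower. Past 8-fold there were 2 higher and 15 lower clones. The 5th and 95th percentiles over all clones were -1.07 and 1.23. The labels name fruit and not a part of it, and in such bulk RNA fewer cells of a type and less RNA per cell cannot be told apart.

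**Figure D1:**
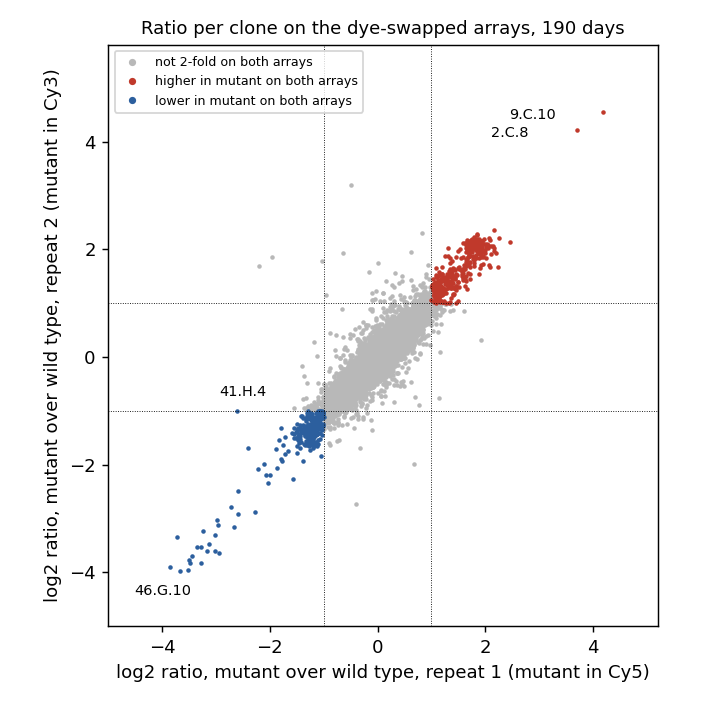
Log2 ratio of mutant over wild type for each kept clone on repeat 1 (x axis, mutant in Cy5) against repeat 2 (y axis, mutant in Cy3), with dotted lines at 2-fold. Red and blue points are the 364 higher and 281 lower clones, which lie along the diagonal; clones 9.C.10 and 2.C.8 stand alone at the upper right, and 46.G.10, the leftmost point, ends the tail at the lower left.

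**Figure D2:**
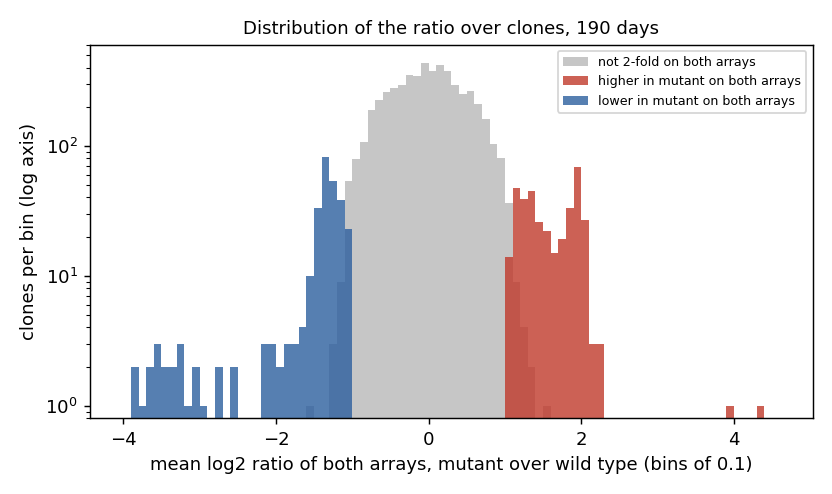
Number of clones per 0.1 of the mean log2 ratio of both arrays, mutant over wild type, on a logarithmic count axis. The higher clones pile up a second time near 2 and end at 2.29 but for clones 9.C.10 and 2.C.8, while the lower clones peak near -1.3 and have a thin tail down to -3.87.

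The highest ratio belonged to clone 9.C.10. Its mutant spots read 5968, 6401 and 7207 on repeat 1 and 5897, 5928 and 6413 on repeat 2, where its wild-type spots read 439, 429 and 465 and then 301, 345 and 319. The 6 mutant spots did not overlap the 6 wild-type spots, which follows from picking the highest ratio. They are technical spots of 1 pair of extracts. The ratio was 4.18 on repeat 1 and 4.55 on repeat 2, with a mean of 4.37 (SD over the 6 spots 0.22), or 20.6-fold higher. Clone 2.C.8 followed at 3.71 and 4.21, with a mean of 3.96 (SD over the 6 spots 0.32), or 15.6-fold higher. Its mutant spots read between 3845 and 5965 and its wild-type spots between 325 and 607.

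Both clones had their highest mutant level and their lowest wild-type level of the 5 collections at 190 days. Part of this follows from picking them for their ratio at 190 days, since the levels are made with that ratio. The normalized log2 level of 9.C.10 in the mutant was 9.57, 11.81, 11.27, 12.59 and 11.01 at 120, 150, 170, 190 and 220 days. The wild-type level was 8.87, 8.63, 8.37, 8.23 and 9.34. The mutant level of 2.C.8 was 9.59, 11.40, 10.79, 12.28 and 10.77, and its wild-type level 9.40, 9.64, 8.59, 8.32 and 9.26. Both clones were thus higher in the mutant in every collection, and the genotypes were closest at 120 days, where the ratio was 0.70 for 9.C.10 and 0.19 for 2.C.8. The clones whose ratios over the 10 arrays ran most like those of 9.C.10 were 43.H.10, 50.H.11, 35.G.10, 60.D.5 and 54.F.8, at r between 0.955 and 0.966. They were picked for a like course on arrays that include those of 190 days, so the likeness follows from that choice. Their ratios at 190 days were between 0.25 and 1.33. Unlike 9.C.10, all of them were lower in the mutant at 120 days, between -0.95 and -0.09.

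A gap separated these from the remaining higher clones. The third highest, 53.B.3, stood at 2.46 and 2.13, with a mean of 2.29, or 4.91-fold higher. The next 7, which were 50.B.11, 45.A.1, 7.H.12, 53.B.4, 59.B.4, 37.D.7 and 40.F.7, lay between 2.08 and 2.26, and each was past 1.9 on both arrays. Other than 7.H.12, these clones come from plates 37 to 59. Clone 7.H.12, at 2.07 and 2.21 on repeats 1 and 2, differed from them at 120 days, where it stood at -1.12 and they stood between -0.47 and 0.26.

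At the low end clone 46.G.10 had the lowest ratio. Its mutant spots read 384, 373 and 373 on repeat 1 and 373, 327 and 349 on repeat 2, and its wild-type spots 7393, 6566 and 6296 and then 6600, 6339 and 6271. Here too the spots of the genotypes did not overlap, which follows from picking the lowest ratio. The ratio was -3.85 and -3.89 on the 2 arrays, with a mean of -3.87 (SD over the 6 spots 0.08), or 14.6-fold lower in the mutant. Clone 46.E.10, in the same plate but in another printing block, stood at -3.66 and -3.98, with a mean of -3.82, or 14.1-fold lower.

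The next lowest clones were 40.E.1, 47.A.7, 35.C.1, 47.B.1, 60.E.11, 30.H.12, 46.B.12 and 50.B.4, between -3.74 and -3.41. All 10 lowest clones come from plates 30 to 60. The 5 clones whose ratios over the 10 arrays ran most like those of 46.G.10 had r between 0.992 and 0.994. Of these 4 are among the 10 lowest, and the other, 47.D.3, stood at -3.38. Those arrays include the arrays of 190 days, so this likeness follows in part from the choice. In the wild type 46.G.10 had its highest level at 190 days, with log2 levels of 10.60, 11.80, 9.29, 12.34 and 11.76 over the 5 collections. Part of this follows from picking the clone for its ratio at 190 days. In the mutant its level was 10.14, 9.42, 7.74, 8.48 and 7.93, so that at 190 days it was above its levels at 170 and 220 days.

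Many of the called clones moved alike. Clones were grouped by their ratios on the 8 arrays of the other 4 days, so that any pair in a group differed by at most 0.4 (log2, root mean square over arrays). The arrays of 190 days were not used for this, and the grouping is the same whichever sign the ratios of a day carry. The 5848 clones with values fell into 807 groups, and the 645 called clones into 191 of these, with the higher clones in 123 and the lower in 69. With a limit of 0.3 or 0.5 the called clones lay in 244 or 156 groups. The SD at 190 days within groups was 0.33, against 0.71 over all clones. Of 191 groups with at least 10 clones, 146 held no called clone, and 1 held called clones of both directions. The groups described next were picked for holding the most called clones, so their high share of calls follows from that choice. Whether their clones carry the same transcript was not tested.

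On the higher side 4 groups, with 52, 24, 19 and 16 clones, were called throughout, 111 clones in all, and none of their clones comes from plates 1 to 29. Their median ratios at 190 days were 1.95, 1.95, 1.90 and 1.95, 3.74-fold to 3.87-fold higher in the mutant. The largest, around clone 61.H.2, had a lowest ratio of 1.73 and a highest of 2.26 (SD over clones 0.10) and came from 23 plates. Over the days 120, 150, 170 and 220 its median ratio was 0.15, 2.53, -1.36 and 0.66. The groups around 43.E.12, 46.H.11 and 32.F.1 had the same course, with medians of 2.09 to 2.59 at 150 days and -1.43 to -1.31 at 170 days.

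The median log2 level of the group around 61.H.2 in the mutant was 9.97, 12.36, 10.94, 12.86 and 12.99 over the 5 collections, and in the wild type 9.81, 9.77, 12.29, 10.90 and 12.36. Both genotypes had their highest level at 220 days, and at 190 days the mutant was close to it while the wild type was not. A further group, around 54.D.3, had 15 of 18 clones called and a wider range, from 0.71 to 1.94. These 5 groups held 126 of the 364 higher clones (34.6%).

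On the lower side the largest group, around clone 30.A.2, held 91 clones from 29 plates, all of them in plates 30 to 61, and 88 of them were called. Its ratio at 190 days ran from -1.49 to -0.98, with a median of -1.32 (SD over clones 0.09), 2.50-fold lower in the mutant. Over the days 120, 150, 170 and 220 its median was -0.41, -1.06, 0.12 and 0.81, so that these clones were lower in the mutant at 190 days and higher at 220 days. The median level in the mutant was 12.71, 11.70, 12.63, 11.29 and 11.71, lowest at 190 days, and in the wild type 13.14, 12.73, 12.47, 12.64 and 10.94. Between 190 and 220 days the wild type thus fell by more than the mutant moved.

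The group around 35.C.1 held 9 clones from 6 plates, among them 46.G.10, and all 9 were called. Its ratio ran from -3.87 to -3.44, with a median of -3.64 (SD over clones 0.14), 12.5-fold lower. The groups around 45.E.7 and 23.D.3 held 11 clones each, all called, with medians of -1.35 and -1.39. In the group around 34.H.9, with a median of -1.09, 16 of 24 clones were called. These 5 groups held 135 of the 281 lower clones (48.0%).

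**Figure D3:**
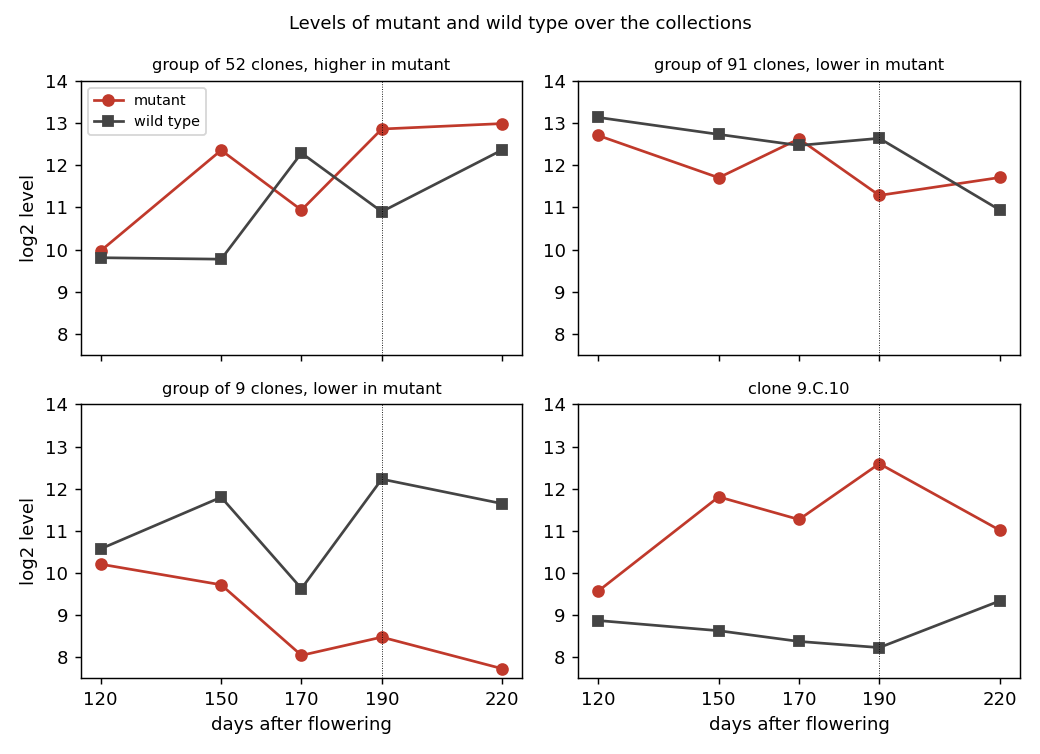
Normalized log2 level in the mutant (red circles) and the wild type (grey squares) at each collection, in days after flowering, as medians over the clones of 3 groups and as the values of clone 9.C.10. At the dotted line, 190 days, the group of 52 clones stood at 12.86 for the mutant and 10.90 for the wild type, the group of 91 at 11.29 and 12.64, the group of 9 at 8.48 and 12.23, and 9.C.10 at 12.59 and 8.23.

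Levels of each genotype were set against its own levels at the other 4 collections to see which genotype stood apart. Each collection is 1 pair of arrays, so array and collection cannot be told apart here. Levels at 170 days are as labelled, and the counts were not repeated with the genotypes of that day exchanged. Among the 281 lower clones the mutant level at 190 days was below all its other collections in 183 (65.1%), against 15.1% of the 5846 clones with values. The wild-type level was above all its other collections in 81 (28.8%), against 12.4%. Among the 364 higher clones the mutant was above all its other collections in 156 (42.9%, against 13.5%), and the wild type below all of its own in 109 (29.9%, against 18.8%). Part of this surplus follows from the call, since a clone is called where the genotypes lie far apart at 190 days. The median departure of the level from the mean of the other days for the higher clones was 1.07 (mutant) and -0.30 (wild type), and for the lower clones -0.78 and 0.40. For 140 of the higher and 37 of the lower clones neither genotype was beyond its other collections in the direction of the call.

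Most clones called at 190 days were 2-fold at some other day too, though that share was not counted over all clones. Of the 364 higher clones 216 (59.3%) were also 2-fold higher at 150 days, where 7.18% of all clones were, and they made up 51.4% of these. At 220 days 45 of them (12.4%) were higher, against 4.37% of all clones, and made up 17.6%. At 170 days 210 of them (57.7%) were lower, against 17.1% of all clones, and 26 (7.14%) were higher, against 7.95%. The higher clones were thus above the background at 150 and 220 days in the same direction, and at 170 days in the other. Of the 281 lower clones 127 (45.2%) were also lower at 150 days, against 5.55% of all clones, and made up 39.1% of the clones lower then. At 220 days 37 (13.2%) were lower, against 2.19%, and made up 28.9%. At 170 days 22 were lower and 40 higher. At 120 days, where 3.62% of all clones were higher and 5.19% lower, 3 of the higher clones were higher and 25 lower, and 5 of the lower clones were higher and 7 lower. For the higher clones the commonest course was higher at 150 days, lower at 170 days and not 2-fold at 120 or 220 days, with 167 clones. For the lower clones it was no 2-fold difference at any other day, with 114 clones. The shares of all clones with these courses were not counted. Directions at 170 days are as labelled. With the sign of that day turned the 210 clones would be higher on both days, and the 26 would be lower at 170 days. Of the lower clones, the 40 would be lower on both days and the 22 higher at 170 days. Whether the sign should be turned was not tested.

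A limma fit over the 5 collections asked whether the ratio at 190 days stood apart from the mean of the other 4. At an adjusted p of 0.05 it called 0 of 5846 clones (0%). At an unadjusted p of 0.05 it passed 46, 41 of them higher at 190 days and 5 lower. That is fewer than chance alone would give on average, so the split by direction is not read as a result. In this fit the single value of 190 days is assumed to vary as the other days do, and those differed widely among themselves. Without 120 days the number under an unadjusted p of 0.05 in limma was 15, without 150 days 109 and without 220 days 152, with 0 called each time. With the control spots Y1 to Y4 as the centre it was 0. The absence of calls does not show that no clone stood apart at 190 days. On simulated data for this comparison with 5846 clones, the fit recovered 0% of changes of 1 or of 2 (log2) and 22.7% of changes of 4. The simulated noise was independent between clones and had each clone's SD over all 5 collections, 190 days included. Recovery on the real data, where many clones moved alike, may differ.

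Clone 18.B.4 had the smallest p in that fit. Its ratio was 1.89 and 1.55 on the arrays of 190 days, and its mean of 1.72 exceeded the mean of the other days, -0.11 ± 0.33 (SD, n = 4 collections), by 1.83 (SE 0.56, adjusted p = 0.999 in limma). It stood at -0.07, -0.04, -0.56 and 0.22 at 120, 150, 170 and 220 days. Clones 12.G.12 and 15.A.11 came next, with 190 days above the other days by 1.83 (SE 0.57) and 1.74 (SE 0.55) and the same adjusted p. On the lower side 55.H.1, 43.B.7 and 13.G.5 had the smallest p, with differences from the other days of -2.13, -1.65 and -1.51. None of these 6 clones passed the test. In the wild type 18.B.4 had its lowest level at 190 days, 11.53 against 12.09 to 12.91 at the other days, and in the mutant its highest, 13.25 against 12.02 to 13.11. Part of this follows from picking the clone for its difference at 190 days. The 13 clones grouped with it by the other days, itself included, ran from -0.19 to 1.72 at 190 days, and 7 of them were called, so clones alike elsewhere differed at 190 days.

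Of the called clones 80 higher (22.0%) and 114 lower ones (40.6%) were 2-fold at no other day. The share of all clones that was 2-fold at no other day was not counted. A stricter limit, a ratio within 0.5 of 0 at each of the other 4 days, was met by 6 higher and 0 lower clones, and by 975 of all 5852. Among the 6, clone 29.G.1 had the highest ratio, 1.58 and 1.63 on the 2 arrays, with 0.15, 0.03, -0.42 and 0.07 at the other days. Its mutant spots averaged 4747 and 3904 and its wild-type spots 2017 and 1590. The next were 1.G.3 at 1.37, 7.A.11 at 1.24, 12.E.3 at 1.17 and 16.B.9 at 1.06. The sixth was 20.H.10 at 1.03, and all 6 come from plates 1 to 29. The calls of 4 of them rest on the normalization. With a loess within printing blocks the mean ratio was 0.96 for 7.A.11, 0.92 for 12.E.3, 0.92 for 16.B.9 and 0.80 for 20.H.10, all under the 2-fold limit, and with Y1 to Y4 as the centre these 4 lay between 0.73 and 0.97. Clones 16.B.9 and 20.H.10 were under it in the authors' series table too, at 0.83 and 0.87. For 29.G.1 and 1.G.3 it stayed above the limit, at 1.71 and 1.34 and at 1.34 and 1.12.

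One called clone was 2-fold in the opposite direction at 150 days. Clone 10.B.7 stood at -1.33 and -1.45 on the arrays of 190 days and at a mean of 2.06 at 150 days. At 170 days, between these, it stood at -3.28, with the direction as labelled. Its mutant level was 13.06, 8.93 and 11.46 at 150, 170 and 190 days, and its wild-type level 11.01, 12.22 and 12.85. From 150 to 190 days the mutant level was thus lower at the end and the wild-type level higher. As labelled, the mutant level rose between 170 and 190 days.

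Lower clones were more frequent in the later plates. The cut between plates 29 and 30 was not in the plan, so it may have been placed with the data known. Plates 30 to 61 held 212 of the 281 lower clones, 6.91% of their 3069 clones, against 69 (2.48%) of the 2783 clones in plates 1 to 29. For higher clones the numbers were 202 (6.58%) and 162 (5.82%). The typical clone also differed, with a median ratio of -0.10 in plates 30 to 61 and 0.15 in plates 1 to 29. With a loess fit within each printing block the lower clones numbered 146 (4.76%) and 96 (3.45%), the higher clones 213 (6.94%) and 126 (4.53%), and the medians were -0.02 and 0.05. The authors' series table gave 152 (4.95%) and 92 (3.31%) lower and 217 (7.07%) and 126 (4.53%) higher clones. Under both, the surplus of lower clones in the later plates was smaller and that of higher clones larger, and the part of the printing blocks in it was not tested. By single plate the share of higher clones was largest in plate 60, with 14 of 96 clones, and that of lower clones in plates 49 and 53, with 11 of 96 each.

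**Figure D4:**
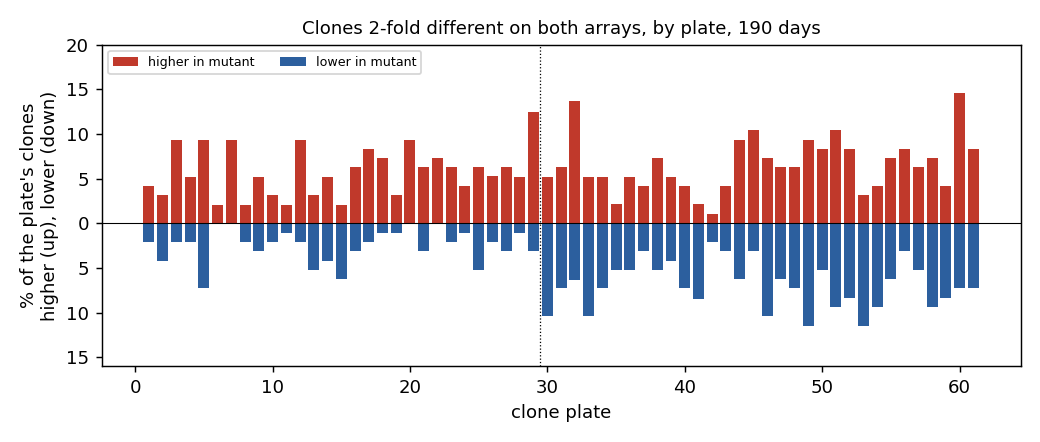
Share of each plate's kept clones that was 2-fold higher (red, upward) or lower (blue, downward) in the mutant on both arrays of 190 days, in percent, for plates 1 to 61. Right of the dotted line, in plates 30 to 61, the blue bars are longer, with 6.91% of clones lower against 2.48% to the left of it.

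Called clones were most frequent in the fourth of 5 classes of signal strength. Clones were ranked by their mean log2 level at 190 days and split into 5 classes of equal size, which describes the signal of the spots and not the abundance of transcripts. In the dimmest class 16 of 1170 clones were higher (1.37%) and 27 lower (2.31%), and the hybridisation SD was 0.32. In the third 107 of 1169 were higher (9.15%) and 79 lower (6.76%). In the fourth 136 were higher (11.6%) and 77 lower (6.58%), with a hybridisation SD of 0.14. In the brightest 35 were higher (2.99%) and 54 lower (4.62%), with a hybridisation SD of 0.13. The SD over clones was 0.54 in the dimmest, 0.82 in the fourth and 0.63 in the brightest class.

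**Figure D5:**
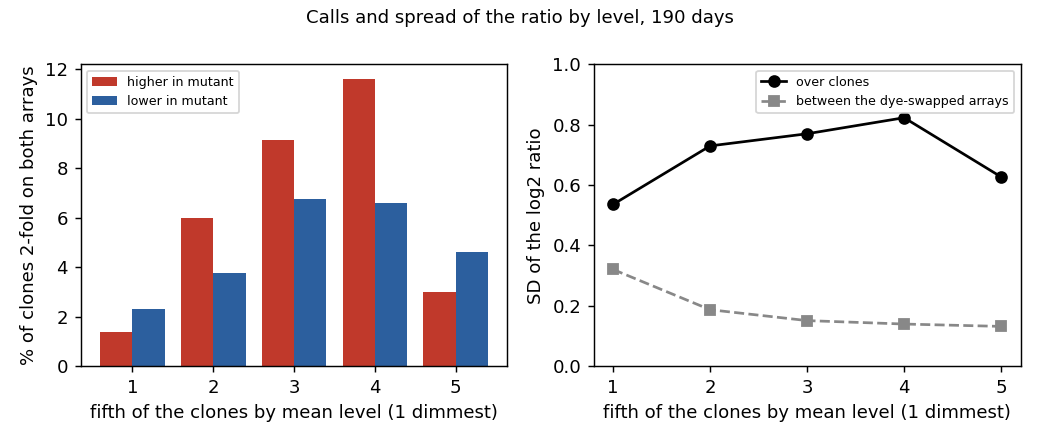
Left, percent of clones 2-fold higher (red) or lower (blue) on both arrays in each of 5 equal classes of the clones by mean level; right, SD of the log2 ratio over clones (circles) and between the dye-swapped arrays (squares). The higher clones peak at 11.6% in the fourth class, and the SD between arrays falls from 0.32 in the dimmest to 0.13 in the brightest.

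Among the brightest called clones 23.C.9, 22.F.7 and 11.E.6 were higher in the mutant, at 1.25, 1.37 and 1.24, with ratios on the 2 arrays that differed by less than 0.1. On the lower side 42.H.2, 15.D.9 and 19.D.11 stood at -1.04, -1.42 and -1.22. With a loess within printing blocks 11.E.6 was at 0.91 and 42.H.2 at -0.23, and in the authors' series table they were at 0.91 and -0.54, so that neither was 2-fold there. With Y1 to Y4 as the centre 11.E.6 was at 0.98. The top of the scale limited 7 called clones, all of them lower. All 6 wild-type spots of 15.D.9 and of 15.D.10 were at the top of the scale, so their wild-type signal was a lower bound. With the loess used here they read 2.67-fold and 3.14-fold lower in the mutant, and these folds depend on the normalization. Clone 15.D.9 was at -1.22 with a loess within printing blocks and at -1.58 in the authors' series table, in place of -1.42. Of the other 5, clones 42.H.2 and 52.H.8 had all 3 wild-type spots of repeat 1 at the top of the scale, so that only repeat 2 measured them, and 23.D.3, 46.F.11 and 60.F.12 had 1 or 2 such spots on repeat 1. The mutant had 0 such spots in these clones.

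A few clones were poorly measured. On the 2 arrays 44 clones differed by more than 1, and 319 were 2-fold on 1 array only. Clones 41.H.3, 41.H.11 and 53.G.5 were 2-fold in opposite directions, at -2.21 and 1.70, -1.04 and 1.77, and -1.96 and 1.85. Each of them had at least 1 spot of 30 or less in at least one dye on both arrays. Of the called clones, 41.H.4, 33.G.5 and 33.A.2 had the most uneven spots, with SDs over the spots of 2.25, 0.92 and 0.60. Clone 33.G.5 moved from -1.17 to -0.69 with a loess within printing blocks, to -0.82 in the authors' series table and to -0.70 with the median over its spots. With the spots that lack an intensity class of the authors left out, it moved to -2.32, and 41.H.4 moved from -1.80 to -4.56. Clone 41.H.4, whose mutant spots averaged 27 and 43.7, stood at -2.61 on repeat 1 and at -1.002 on repeat 2, just past the 2-fold limit. Other clones near that limit varied in how evenly they were measured. Clone 25.B.11, also just inside it, stood at 1.45 and 1.005, with an SD over the spots of 0.33. Clone 20.H.10 lay just inside it at 1.001 and 1.067, and 52.C.5 just outside at 0.997 and 1.003, with an SD over the spots of 0.06 and 0.03.

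The ratios were close to those the authors deposited. The authors' deposited table of lowess ratios lists a ratio for 5615 clones at 190 days, which correlated across clones with the ratio used here at 0.968 on the log2 scale. Of the 364 higher clones, all 364 are listed in the authors' deposited table and 329 are 2-fold there. Of the 281 lower clones 277 are listed in the authors' deposited table and 224 are 2-fold there. For the extreme clones the authors' deposited table gives linear ratios of 25.9 for 9.C.10, 18.85 for 2.C.8, 0.08835 for 46.G.10 and 0.108 for 46.E.10. The order among the lowest clones differs in the authors' deposited table, where 40.E.1, 50.B.4, 35.C.1 and 46.B.12, at log2 values of -4.25, -3.94, -3.79 and -3.76, lie below 46.G.10 at -3.50. On repeat 1 the authors' series table correlated with a loess within printing blocks at 0.984 and with the global loess used here at 0.961.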

How the data were processed

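Per the file headers and values, the authors deposited Cy5 and Cy3 intensity, already background-subtracted, for each spot. Per the labels' protocols, RNA was amplified before labelling, which can change relative abundance. Scanner and software were not given in the sources used here. A deposited ratio of the spots, with the mutant as numerator, equals the log2 values of the authors' series table to within 5.0e-05. That table has medians of 0.01055 and 0.0301 in its 190-day columns. The deposited lowess table holds 1 linear ratio per clone and time point.

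Intensities at or below 0 were left out (24 and 25 clone spots). Log2 ratios were normalized per array by global loess (span 0.3, controls at weight 0), given the mutant as numerator in both dye orientations, and averaged over the 3 spots of a clone. Of 5856 clones 5852 were kept, with either dye above the 95th percentile of blank and solvent spots in 5 or more of the 10 arrays. At 190 days 21 of these were not above it in both genotypes on both arrays, and 0 of these were called. For levels, the mean log2 intensity of both dyes was quantile normalized between arrays and the loess ratio split around it. The number of arrays limits the precision. limma (version 3.58.1, R 4.3.3) gave two-sided p-values with Benjamini-Hochberg adjustment, on 3 residual degrees of freedom, and was tested on simulated data. Nothing says that collections came from separate trees, so p-values measure the spread between collections. Clones were named by rule: extremes, clones at the limit, clones quiet at other days, smallest p, brightest, opposite at 150 days, uneven spots and most alike. Members, rules and lists were chosen with earlier results of these data known. The list of pathway and tissue genes drawn up could not be run, as no clone has a gene name. The grouping by profile was added after the data were seen.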

Additional observations from a re-analysis of the deposited data

Results flagged for a closer look

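Some clones were 2-fold different at 190 days and 2-fold in the opposite direction on both arrays of another day, and the difference between the days was not tested for them. Of the 364 clones higher in the mutant at 190 days, 25 (6.87%) were lower at 120 days, against 5.19% of all clones. At 170 days 210 (57.7%) were lower, against 17.1%, and at 220 days 2 (0.55%), against 2.19%. Of the 281 clones lower at 190 days, 5 (1.78%) were higher at 120 days, against 3.62% of all clones. At 150 days 1 (10.B.7, 0.36%) was higher, against 7.18%. At 170 days 40 (14.2%) were higher, against 7.95%, and at 220 days 2 (0.71%), against 4.37%. Only at 170 days, where directions are as labelled, were both shares well above those of all clones. With median centring the clones higher at 190 days and lower at 170 days numbered 219, and they numbered 185 when taken from the authors' series values.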

How the results depend on the processing

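The number of clones 2-fold at 190 days, 645, stayed between 505 and 864 under the 13 alternatives. With 1 array alone it was 748 to 864, with the mean of both arrays 764, and with the authors' ratio class on all 6 spots, an alternative chosen after seeing the data, 505. With the control spots Y1 to Y4 as the centre, which put the median clone at -0.29 and -0.24, 228 were higher and 545 lower, so that 29.5% of the called clones were higher in place of 56.4%. With the other centring choices 55.2% to 58.4% were higher. The test against the other days called 0 clones in limma under every alternative, with a smallest adjusted p between 0.997 and 1 and between 0 and 152 clones under an unadjusted p of 0.05. A fit of all 10 arrays, with collections as a random block, called 0 with the replicate block (72 under an unadjusted p of 0.05) and 0 without it (86). No named clone that was called changed sign, and of the other named clones 54.F.8 went from 0.25 to -0.04 with Y1 to Y4 as the centre. Of the 48 named clones that were called, the mean ratio fell under 2-fold for 8 with a loess within printing blocks, 7 with Y1 to Y4 as the centre, 5 in the authors' series table, 4 of 45 in the authors' table of lowess ratios and at most 2 under the other settings. The ratio moved by more than the SD between the arrays for 48 of 58 with Y1 to Y4 as the centre, 34 in the authors' series table, 33 of 55 in the authors' table of lowess ratios, 31 of 58 with a loess within printing blocks, and at most 8 under the other settings. The group around 30.A.2 had a median of -1.13 with a loess within printing blocks and -1.64 with Y1 to Y4 as the centre, in place of -1.32. Clones in the dimmest class are the least precise.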
